A study of Mus musculus with 12 samples.

Results

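A set of 39 genes of MHC class I antigen presentation and the interferon response was followed in mouse muscle progenitors, among 23284 gene symbols in the deposited table. The members were taken by symbol from a list, and all 39 were found and passed the filter on low values (at least 1 FPKM in at least 3 libraries, which 12699 genes passed). They fall into 11 genes of antigen presentation and 28 interferon-stimulated genes. RNA-seq was available for 12 libraries, 3 in each of 4 groups, and the design text calls them biological replicates without naming separate animals, so a p-value here measures the spread between these samples.

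All cells were of strain 129P2/OlaHsd per the labels and were sorted for α7-integrin and VCAM, 2 surface proteins of muscle progenitors, and against CD31, an endothelial antigen, and CD45, a leukocyte antigen. For the transplant group, cells obtained from teratomas had been placed in tibialis anterior muscle and were recovered 1 month later, and the labels do not name the strain of the recipient animals. The teratoma group came from teratomas at 3 weeks, which are mixed-tissue tumours grown from pluripotent stem cells. The adult group came from hindlimbs of 8-week-old males, and the embryo group from whole embryos at E14.5. Transplant and teratoma libraries are called stem-cell-derived below, and adult and embryo libraries native.

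MHC class I molecules show peptides from inside the cell to CD8 T cells. Each consists of a heavy chain, such as the products of H2-K1 and H2-D1, bound to the invariant light chain B2m. Proteasomes cut the peptides, the Tap1 and Tap2 transporter carries them into the endoplasmic reticulum, and tapasin (Tapbp) helps to load them. Interferons bind surface receptors and act through Jak kinases. Type I interferon drives a complex with Stat2 and Irf9 onto interferon-stimulated response elements (ISRE), whereas interferon gamma acts through gamma-activated sites (GAS) and induces Irf1. Nlrc5 is a transactivator of class I genes, and class I promoters also bind NF-kB.

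Promoter stretches of members on which the results turn are printed with the motif matches found in them. They are RefSeq sequence of GRCm38.p6, the C57BL/6J reference and not the strain of these cells, read 5′ to 3′ on the strand of the gene. Capitals mark a match to a motif on either strand. The motifs searched, on both strands, were GAAA, any 2 bases and GAAA for the ISRE; TTC, any 3 bases and GAA for the GAS; and GGG, any 2 bases, TT, any base and CC for the NF-kB (kappa-B) site. A match is a description and not a shown binding site. Only exact matches are in capitals, so a near match stays in lower case. The last bases of the H2-K1 and H2-D1 stretches are such a near match to the ISRE letters. In the Bst2 stretch the GAS is followed by 2 ISRE, each match overlapping the next.
H2-K1 (chr17:34000429-34000478, minus strand, kappa-B): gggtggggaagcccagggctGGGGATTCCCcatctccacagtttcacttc
H2-D1 (chr17:35262903-35262952, plus strand, kappa-B): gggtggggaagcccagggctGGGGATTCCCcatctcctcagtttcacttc
B2m (chr2:122147528-122147590, plus strand, ISRE then kappa-B): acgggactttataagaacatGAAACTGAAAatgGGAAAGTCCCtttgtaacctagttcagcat
Isg15 (chr4:156200855-156200916, minus strand, 3 overlapping ISRE): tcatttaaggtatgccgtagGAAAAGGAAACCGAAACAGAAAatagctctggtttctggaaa
Bst2 (chr8:71537567-71537628, minus strand, GAS overlapping ISRE): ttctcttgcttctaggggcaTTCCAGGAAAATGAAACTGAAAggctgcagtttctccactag
Ifit3 (chr19:34583353-34583436, plus strand, 2 ISRE): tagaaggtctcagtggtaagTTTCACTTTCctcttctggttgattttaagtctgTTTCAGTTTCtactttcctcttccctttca
Gbp3 (chr3:142559979-142560034, plus strand, 2 overlapping ISRE): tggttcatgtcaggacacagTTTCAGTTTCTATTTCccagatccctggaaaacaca
Irf1 (chr11:53769904-53769952, plus strand, GAS): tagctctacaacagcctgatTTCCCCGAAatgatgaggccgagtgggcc

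Promoters from 250 bases before to 50 bases after the start were found for 9 of the 11 antigen presentation genes and 23 of the 28 interferon-stimulated genes. The ISRE letters stood in 12 of the 23 interferon-stimulated promoters (52.2%), in 2 of the 9 antigen presentation promoters (H2-T23 and B2m, 22.2%) and in 3.99% of all 27025 promoters. The kappa-B letters stood in 3 of the 9 antigen presentation promoters (H2-K1, H2-D1 and B2m, 33.3%), in 1 of the 23 interferon-stimulated promoters (Ifit1, 4.35%) and in 5.48% of all promoters. GAS letters stood in 1 of the 9 (Psmb8, 11.1%), in 6 of the 23 (26.1%) and in 9.55% of all. Most antigen presentation members lie in the MHC region of chromosome 17, where Psmb9, Tap1, Psmb8 and Tap2 are neighbours. Of the others, B2m is on chromosome 2 and Psmb10 and Nlrc5 are on chromosome 8.

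Between 9495 and 12000 genes reached 1 FPKM per library, and read depth is unknown. Summed FPKM ran from 413000 in embryo replicate 2 to 12020000 in embryo replicate 3 and 12340000 in adult replicate 2. Median-ratio scaling factors ran from 0.817 (adult replicate 2) to 1.33 (embryo replicate 3). In zeros embryo replicate 2 stood apart, with 74 genes listed at 0 that were well above 0 in its group mates, against 6 to 27 in the other libraries. An exact 0 in these values can be a failed estimate. Changes are given as log2 changes of log2(FPKM + 1) with their standard errors, which understate the change of low genes. A gene was called at a limma adjusted p under 0.05 over all 12699 genes. The comparisons share groups and are therefore not independent of each other. The median gene fell by 0.42 in adult against embryo and rose by 0.50 in teratoma against adult on the deposited values. Counts of called members under median-ratio scaling are therefore given where they differ, here or in the closing section on processing.

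**Figure D1:**
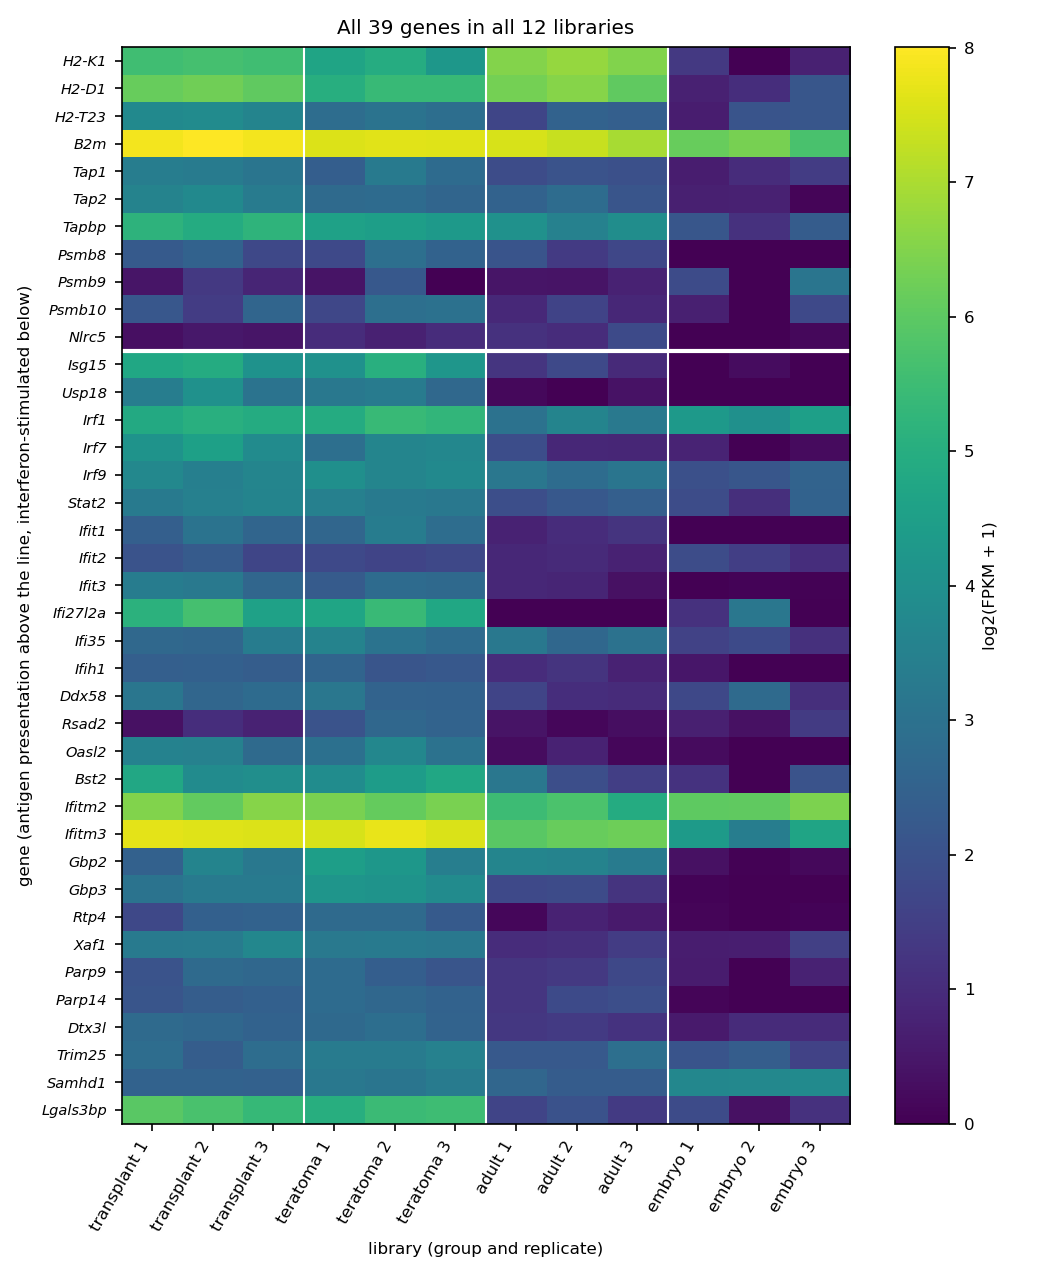
Heat map of log2(FPKM + 1), by colour, for the 39 genes (down the page, antigen presentation genes above the white line and interferon-stimulated genes below it) in the 12 libraries (across, by group and replicate). Transplant and teratoma columns are brighter than adult and embryo columns for most interferon-stimulated genes, while H2-K1 is brightest in adult columns.

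Both gene groups were mostly lowest in embryo cells, where 10 of 11 antigen presentation genes and 21 of 28 interferon-stimulated genes had their lowest group mean. H2-T23, B2m, Tap1, Tap2 and Tapbp had the same order of group means as Isg15, Usp18, Irf7 and Stat2, falling through transplant, teratoma, adult and embryo cells, whereas H2-K1 and H2-D1 had their highest mean in adult cells. The difference between the 2 gene groups was not tested. For 20 of the 28 interferon-stimulated genes and 4 of the 11 antigen presentation genes (H2-T23, B2m, Tap1 and Tapbp) all 6 stem-cell-derived libraries lay above all 6 native ones, as they did for 4.92% of all genes tested. They lay below all native ones for 0 of the 39, against 0.961% of all genes. All 3 adult libraries lay above the other 9 for H2-K1 alone among the antigen presentation genes and for 0 interferon-stimulated genes, against 8.45% of all genes. All 3 embryo libraries lay below the other 9 for 8 of the 11 and for 14 of the 28, against 7.02% of all genes. These are counts of levels and not a test.

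The classical heavy chains were among the most changed members. H2-K1 had 46.2, 48.8 and 46.2 FPKM in transplant cells, 24.4, 29.9 and 17.9 in teratoma cells, 91.6, 106 and 88.9 in adult cells and 1.52, 0 and 0.667 in embryo cells. The 4 groups did not overlap, and adult cells were highest. H2-D1 had 69.7, 76.0 and 65.8 FPKM in transplant cells, 31.4, 40.7 and 40.9 in teratoma cells, 78.8, 93.7 and 64.7 in adult cells and 0.667, 1.08 and 3.43 in embryo cells. Here transplant and adult libraries overlapped, with teratoma cells between them and the embryo. H2-K1 was higher than in embryo cells by 4.90 ± 0.28 in transplant (adjusted p = 2.53e-07), 3.93 ± 0.28 in teratoma (adjusted p = 3.86e-06) and 5.90 ± 0.28 in adult cells (adjusted p = 3.88e-08). H2-D1 was higher by 4.84 ± 0.30 (adjusted p = 3.51e-07), 3.95 ± 0.30 (adjusted p = 4.4e-06) and 4.99 ± 0.30 (adjusted p = 1.31e-07) in the same order. Heavy chain genes share sequence, and 8.79% of the 50-base words of H2-K1 and 14.3% of those of H2-D1 also occur in other genes, so their reads may be split between copies. The related gene H2-Q4, which is no member, ran the same way, with means of 19.7 ± 2.59 FPKM in transplant, 16.02 ± 1.14 in teratoma, 38.6 ± 3.13 in adult and 1.11 ± 0.996 in embryo cells (SD, n = 3). It is among the genes that share words with H2-K1, so the 2 levels may not be independent. Other related genes did not all have this order. H2-T22 and H2-M3 had their highest mean in transplant cells, and H2-K2 and H2-Q6 in teratoma cells.

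Between the other groups, H2-K1 was lower than in adult cells by 1.00 ± 0.28 in transplant cells (adjusted p = 0.0131), a change that was not called with a pseudocount of 0.1 (adjusted p = 0.283). It was lower by 1.97 ± 0.28 in teratoma cells (adjusted p = 0.000211). H2-D1 was lower by 1.04 ± 0.30 in teratoma against adult cells (adjusted p = 0.0134, but 0.0528 without adult replicate 2 and 0.0595 with a pseudocount of 0.1), and in transplant against adult cells it changed by -0.15 (95% interval -0.80 to 0.50, not called). So only the teratoma group was called below adult cells for both chains.

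B2m, the shared light chain, was present in every library. It had 235, 256 and 234 FPKM in transplant cells, 189, 199 and 195 in teratoma cells, 183, 160.5 and 123 in adult cells and 69.8, 82.0 and 51.3 in embryo cells. Transplant cells were highest and embryo cells lowest, with no overlap between groups. The changes from embryo cells were 1.85 ± 0.19 in transplant (adjusted p = 1.06e-05), 1.53 ± 0.19 in teratoma (adjusted p = 0.000111) and 1.20 ± 0.19 in adult cells (adjusted p = 0.000189). In transplant against adult cells B2m was higher by 0.65 ± 0.19 (adjusted p = 0.0134), a call lost without adult replicate 3 (adjusted p = 0.0616) and under median-ratio scaling (adjusted p = 0.117). The summed heavy chains H2-K1 and H2-D1 came to 47.8 to 49.4% of the B2m level in transplant, 29.5 to 35.4% in teratoma, 93.2 to 125% in adult and 1.32 to 7.99% in embryo cells. The embryo cells thus held B2m transcript at levels where heavy chain transcripts were near 0.

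**Figure D2:**
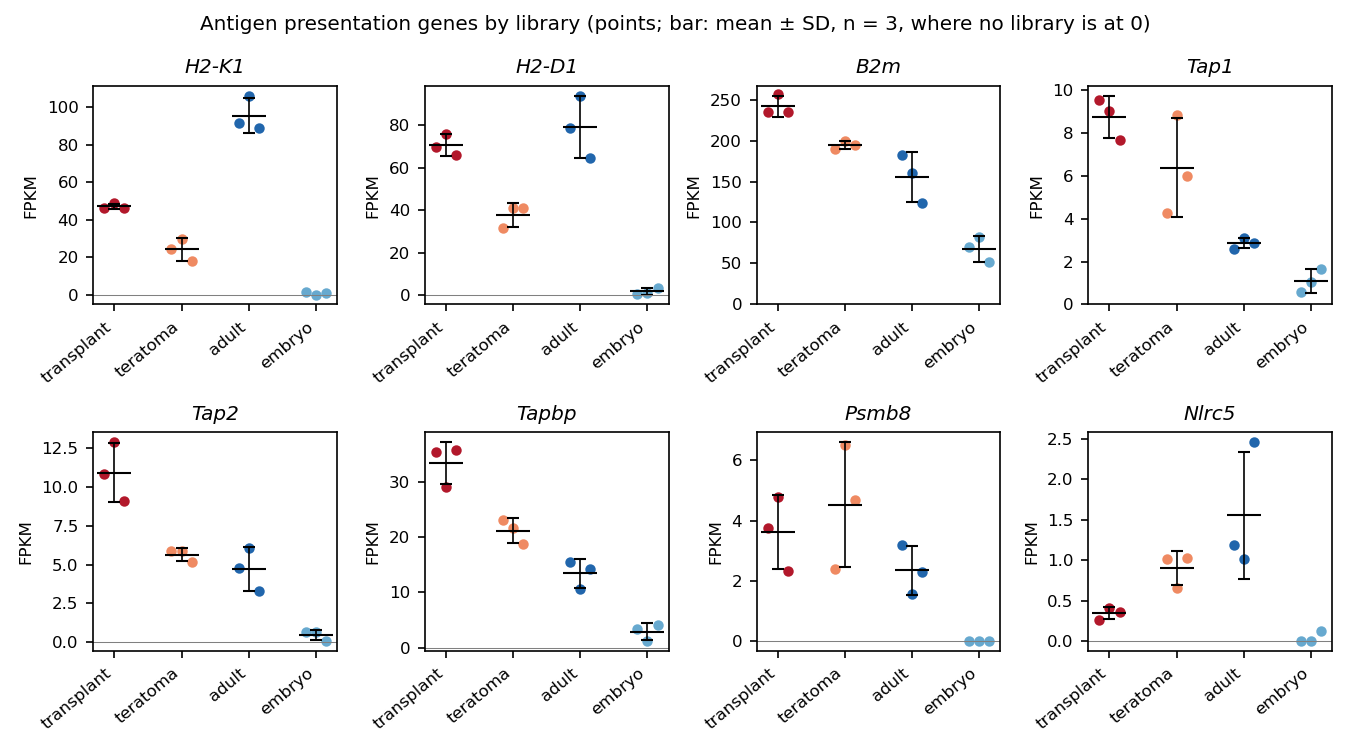
FPKM (vertical axes, linear and of different range per panel) of 8 antigen presentation genes in transplant, teratoma, adult and embryo libraries. Each point is 1 library, and the bar and whiskers are the mean ± SD of 3 libraries where none is at 0. The embryo points are lowest in each panel, and only H2-K1 has all 3 adult points above the rest.

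Peptide loading genes had the order of B2m, with means falling through transplant, teratoma, adult and embryo cells. Tap1, the first transporter subunit, had 9.54, 9.02 and 7.64 FPKM in transplant, 4.27, 8.83 and 6.002 in teratoma, 2.60, 3.10 and 2.88 in adult and 0.564, 1.04 and 1.67 in embryo cells. Tap2, the other subunit, had 10.9, 12.9 and 9.07 FPKM in transplant, 5.86, 5.89 and 5.14 in teratoma, 4.79, 6.07 and 3.29 in adult and 0.626, 0.671 and 0.0709 in embryo cells. Tapbp (tapasin) had 35.4, 29.1 and 35.7 FPKM in transplant, 23.1, 21.6 and 18.8 in teratoma, 15.5, 10.5 and 14.3 in adult and 3.44, 1.20 and 4.03 in embryo cells. All 3 were called higher than in embryo cells in the other 3 groups, although the Tap1 call in adult cells was lost without embryo replicate 1 (adjusted p = 0.0549). The changes for transplant against embryo were 2.25 ± 0.27 for Tap1 (adjusted p = 4.6e-05), 3.05 ± 0.26 for Tap2 (adjusted p = 3.41e-06) and 3.23 ± 0.28 for Tapbp (adjusted p = 3.69e-06). For transplant against adult they were 1.33 ± 0.27 (adjusted p = 0.00201), 1.08 ± 0.26 (adjusted p = 0.00532) and 1.26 ± 0.28 (adjusted p = 0.00311), of which the Tap2 call was lost with a pseudocount of 0.1 (adjusted p = 0.0728). Against teratoma cells, Tapbp in transplant cells was not called (0.63, adjusted p = 0.123). H2-T23, a non-classical heavy chain, had 13.1, 13.7 and 11.3 FPKM in transplant, 6.19, 7.24 and 6.37 in teratoma, 2.18, 4.69 and 4.40 in adult and 0.561, 3.20 and 3.38 in embryo cells. It was higher by 2.16 ± 0.37 in transplant against embryo (adjusted p = 0.000543) and by 1.57 ± 0.37 in transplant against adult cells (adjusted p = 0.00449). Adult and embryo values of H2-T23 overlapped, unlike those of H2-K1 and H2-D1, and 28.8% of its 50-base words are shared with other genes. Tap1 and Psmb9 overlap on opposite strands, and so do Tapbp and an antisense gene. The library kit was a stranded one, but the use of strand in counting is not given in the sources used here. Whether reads in the overlaps (212 bases for Tap1 and Psmb9, 904 for Tapbp) were told apart is therefore unknown.

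The inducible proteasome subunits were low throughout. Psmb8 had 3.76, 4.79 and 2.33 FPKM in transplant, 2.39, 6.51 and 4.68 in teratoma and 3.20, 1.56 and 2.29 in adult cells, and was listed at 0 in all 3 embryo libraries. It passed the test against embryo cells in transplant (adjusted p = 0.000228), teratoma (adjusted p = 0.000283) and adult cells (adjusted p = 0.000853), and no fold change is given against a group at 0. Psmb10 reached group means of 3.47 ± 1.75 FPKM in transplant, 5.24 ± 2.62 in teratoma and 1.27 ± 0.698 in adult cells (SD, n = 3), with 0.615, 0 and 2.42 in embryo cells. Psmb9 ranged from 0 to 7.61 FPKM, highest in embryo replicate 3 and next in teratoma replicate 2 (3.65 FPKM). It was the 1 member called in no comparison. The constitutive counterparts were much more abundant. Psmb5 averaged 23.3 ± 10.8 FPKM in transplant, 31.8 ± 14.2 in teratoma, 13.4 ± 4.73 in adult and 23.5 ± 4.45 in embryo cells. Psmb6 averaged 35.7 ± 9.68, 72.8 ± 13.4, 50.002 ± 3.96 and 93.2 ± 11.4 FPKM, and Psmb7 18.6 ± 2.64, 35.8 ± 8.03, 36.0 ± 1.68 and 53.1 ± 3.73 FPKM, in the same 4 groups (SD, n = 3). The 3 inducible subunits summed to 8.37 to 12.3% of the 3 constitutive ones in transplant, 3.03 to 11.6% in teratoma, 3.89 to 4.31% in adult and 0 to 6.24% in embryo libraries. Psmb6 and Psmb7 were called lower in transplant against teratoma cells, by 1.03 ± 0.20 (adjusted p = 0.00332) and 0.90 ± 0.17 (adjusted p = 0.00313).

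Nlrc5, the class I transactivator, was near the lower limit. It had 0.264, 0.415 and 0.364 FPKM in transplant, 1.02, 0.661 and 1.02 in teratoma, 1.19, 1.02 and 2.46 in adult and 0, 0 and 0.118 in embryo cells. Its level was called higher in adult against embryo cells (1.26 ± 0.25, adjusted p = 0.00105). In transplant against adult cells it was lower by 0.88 ± 0.25 (adjusted p = 0.0123, but 0.0605 without adult replicate 3). It was the antigen presentation member besides H2-K1 that was called lower in transplant than in adult cells.

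In counts, 8 of the 11 antigen presentation genes were called higher and 0 lower in transplant against embryo cells, where 42.5% of all genes were called (14.9% higher and 27.6% lower). In teratoma against embryo cells the counts were 10 higher and 0 lower, against 26.0% of all genes called (15.5% higher and 10.6% lower). In adult against embryo cells they were 8 higher and 0 lower, against 52.8% (15.8% higher and 36.9% lower). Without embryo replicate 2, each of the 3 comparisons had 8 called higher, and 1 gene was called lower in transplant and in adult against embryo cells. Also at an unadjusted p under 0.05 none of the 11 was lower in any of the 3 by limma. The median changes of the 11 genes were 2.17, 1.803 and 1.26 in that order, beside -0.24, 0.01 and -0.42 over all genes tested.

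Most interferon-stimulated genes had higher levels in stem-cell-derived than in native libraries. Isg15, a ubiquitin-like modifier, had 26.5, 29.3 and 15.8 FPKM in transplant, 15.7, 31.8 and 17.4 in teratoma, 1.35, 2.39 and 0.927 in adult and 0, 0.191 and 0 in embryo cells. Usp18, the protease that removes it, had 9.46, 15.4 and 7.24 FPKM in transplant, 8.23, 9.04 and 5.53 in teratoma and 0.130, 0 and 0.322 in adult cells, and was listed at 0 in all embryo libraries. Both genes separated all stem-cell-derived from all native libraries. Isg15 was higher than in adult cells by 3.28 ± 0.32 in transplant (adjusted p = 1.63e-05) and 3.12 ± 0.32 in teratoma cells (adjusted p = 2.14e-05). Usp18 was higher than in adult cells by 3.30 ± 0.29 (adjusted p = 7.77e-06) in transplant and 2.89 ± 0.29 (adjusted p = 1.63e-05) in teratoma cells. Against embryo cells the Isg15 changes were 4.51 ± 0.32 in transplant (adjusted p = 1.02e-06), 4.35 ± 0.32 in teratoma (adjusted p = 4.05e-06) and 1.23 ± 0.32 in adult cells (adjusted p = 0.00649).

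Among transcription factors of the pathway, Irf7 and Stat2 had the order of Isg15, while Irf9 had its highest mean in teratoma cells. Irf7, which amplifies type I interferon production, had 16.2, 22.4 and 13.5 FPKM in transplant, 6.60, 11.5 and 12.02 in teratoma, 2.70, 0.837 and 0.826 in adult and 0.721, 0 and 0.168 in embryo cells. It was higher than in adult cells by 2.96 ± 0.35 in transplant (adjusted p = 5.14e-05) and 2.21 ± 0.35 in teratoma cells (adjusted p = 0.000375). Stat2 had 8.80, 10.3 and 11.1 FPKM in transplant, 10.2, 8.85 and 8.15 in teratoma, 2.81, 3.60 and 4.40 in adult and 2.60, 1.12 and 4.79 in embryo cells. Its stem-cell-derived libraries all lay above its native ones, while adult and embryo values overlapped. Irf9 had 12.4, 9.98 and 11.6 FPKM in transplant, 14.9, 11.4 and 13.0 in teratoma, 8.11, 6.06 and 7.67 in adult and 2.84, 3.43 and 4.79 in embryo cells. The change of Stat2 in transplant against adult cells was 1.27 ± 0.31 (adjusted p = 0.00594), and that of Irf9 in transplant against embryo cells was 1.41 ± 0.21 (adjusted p = 0.000184). Irf9 was also called in transplant against adult cells (0.58 ± 0.21, adjusted p = 0.0384), but the call was lost without transplant replicate 1 or 3 or without any 1 adult library (adjusted p from 0.0517 to 0.137) and under median-ratio scaling (adjusted p = 0.1).

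Irf1, the factor induced by interferon gamma, differed from these in being abundant in embryo cells. It had 27.9, 32.4 and 29.2 FPKM in transplant, 29.2, 41.3 and 37.5 in teratoma, 7.10, 11.3 and 8.38 in adult and 19.0, 15.1 and 21.9 in embryo cells, and only the 2 stem-cell-derived groups overlapped. Irf1 was higher than in adult cells by 1.66 ± 0.20 in transplant (adjusted p = 6.44e-05) and 1.91 ± 0.20 in teratoma cells (adjusted p = 2.56e-05). In adult against embryo cells it was lower by 0.99 ± 0.20 (adjusted p = 0.00131), a call that median-ratio scaling removed (-0.49, adjusted p = 0.0609). Embryo cells thus paired Irf1 at 15.1 to 21.9 FPKM with H2-K1 at 0 to 1.52 FPKM, and adult cells paired Irf1 at 7.10 to 11.3 FPKM with H2-K1 at 88.9 to 106 FPKM.

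**Figure D3:**
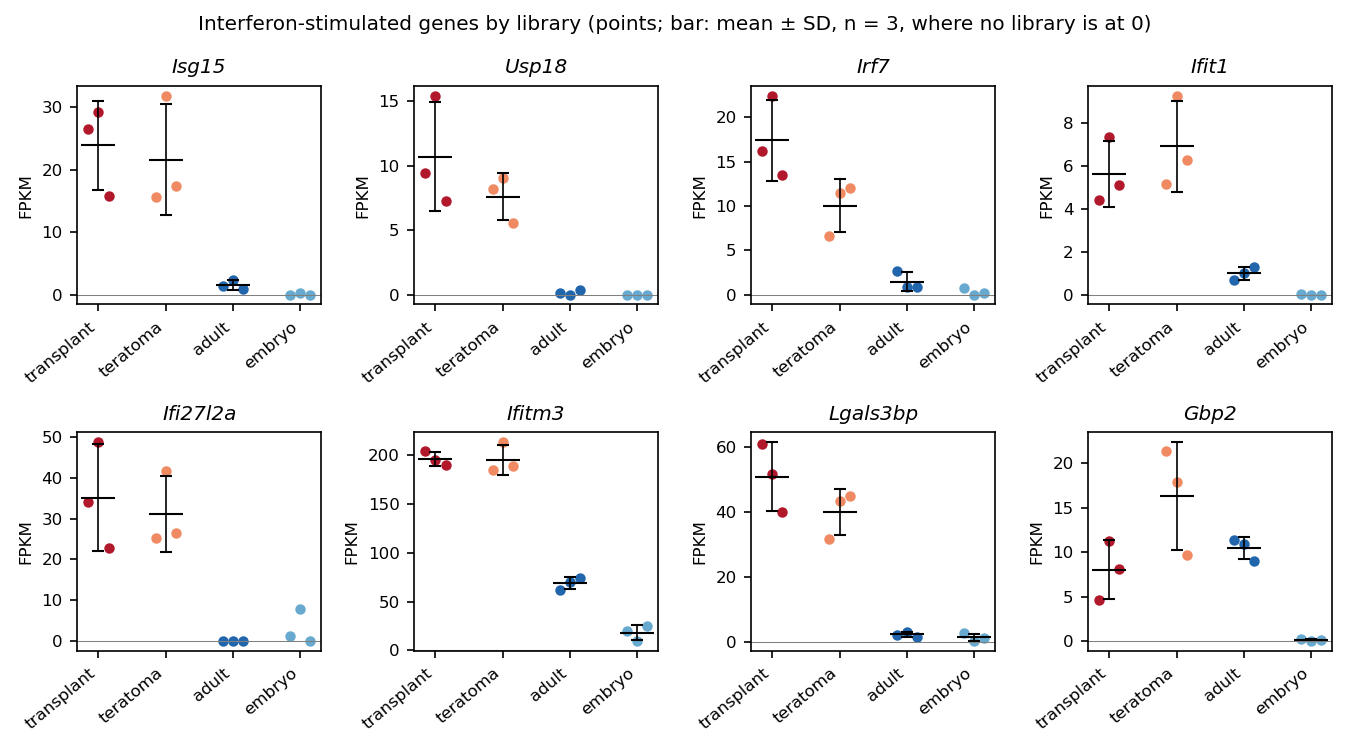
FPKM (vertical axes, linear and of different range per panel) of interferon-stimulated genes in transplant, teratoma, adult and embryo libraries. Each point is 1 library, and the bar and whiskers are the mean ± SD of 3 libraries where none is at 0. Isg15, Usp18, Irf7 and Lgals3bp are high in the 6 stem-cell-derived libraries and at most 3.09 FPKM in the native ones, while adult Gbp2 points (9.01 to 11.4 FPKM) lie among the stem-cell-derived ones.

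Lgals3bp and Ifi27l2a were at least 22.7 FPKM in stem-cell-derived libraries and at most 7.97 FPKM in native ones. Lgals3bp, a secreted galectin-binding glycoprotein, had 60.9, 51.6 and 39.8 FPKM in transplant, 31.7, 43.2 and 44.8 in teratoma, 2.10, 3.09 and 1.58 in adult and 2.55, 0.275 and 1.19 in embryo cells. Ifi27l2a had 34.1, 48.7 and 22.7 FPKM in transplant and 25.2, 41.8 and 26.4 in teratoma cells, was listed at 0 in all adult libraries, and had 1.19, 7.97 and 0 in embryo cells. Neither gene's stem-cell-derived and native libraries overlapped. Lgals3bp was higher than in adult cells by 3.996 ± 0.33 in transplant (adjusted p = 6.37e-06) and 3.66 ± 0.33 in teratoma cells (adjusted p = 9.18e-06). Ifi27l2a passed the test against adult cells in transplant (adjusted p = 4.93e-05) and in teratoma cells (adjusted p = 6.22e-05).

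Antiviral membrane proteins were abundant. Ifitm3, which blocks virus entry at endosomes, had 203, 194 and 189.6 FPKM in transplant, 184, 213 and 189 in teratoma, 61.7, 70.3 and 74.5 in adult and 19.7, 9.60 and 24.5 in embryo cells. Its relative Ifitm2 had 88.1, 66.8 and 92.9 FPKM in transplant, 82.4, 68.4 and 83.2 in teratoma, 43.7, 52.2 and 29.3 in adult and 64.3, 65.7 and 85.5 in embryo cells. Ifitm3 was lowest in embryo cells and Ifitm2 in adult cells. For transplant against adult cells Ifitm3 was higher by 1.498 ± 0.25 (adjusted p = 0.000576) and Ifitm2 by 0.99 ± 0.22 (adjusted p = 0.00292), whereas against embryo cells the changes were 3.47 ± 0.25 (adjusted p = 1.19e-06) and 0.20 (adjusted p = 0.496, not called). As 48.5% of the 50-base words of Ifitm2 occur in other genes, its level is uncertain singly. Bst2 (tetherin), which holds budding virus at the surface, had 26.9, 13.5 and 14.502 FPKM in transplant, 13.8, 20.6 and 26.3 in teratoma, 7.93, 2.80 and 1.83 in adult and 1.25, 0 and 3.17 in embryo cells. Its stem-cell-derived libraries lay above the native ones, and the change in transplant against embryo cells was 3.13 ± 0.53 (adjusted p = 0.000519).

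The guanylate-binding proteins, GTPases induced by interferon gamma, differed from each other. Adult Gbp2 values lay among the stem-cell-derived ones. Gbp3 separated stem-cell-derived from native libraries, with the order of group means of Irf9. Gbp2 had 4.63, 11.3 and 8.14 FPKM in transplant, 21.4, 17.9 and 9.65 in teratoma, 11.4, 11.0 and 9.01 in adult and 0.292, 0.0287 and 0.119 in embryo cells. Only embryo cells stood apart, and the change from them was 2.91 ± 0.32 in transplant (adjusted p = 2.25e-05), 3.86 ± 0.32 in teratoma (adjusted p = 9.64e-06) and 3.32 ± 0.32 in adult cells (adjusted p = 5.04e-06). Gbp3 had 7.29, 8.57 and 8.61 FPKM in transplant, 17.2, 16.2 and 13.5 in teratoma, 2.38, 2.54 and 1.32 in adult and 0.0516, 0 and 0 in embryo cells. The 4 groups did not overlap in Gbp3, and the change from adult cells was 1.59 ± 0.22 in transplant (adjusted p = 0.000168) and 2.45 ± 0.22 in teratoma cells (adjusted p = 9.23e-06). Samhd1, a dNTP hydrolase that restricts retroviruses, ran against the list. It had 4.73, 4.68 and 4.61 FPKM in transplant, 8.26, 7.63 and 9.03 in teratoma, 5.27, 4.04 and 4.05 in adult and 12.1, 12.3 and 13.4 in embryo cells. It was the 1 interferon-stimulated gene called lower in transplant against embryo cells (by 1.26 ± 0.17, adjusted p = 0.000115). The same was seen in teratoma against embryo cells (by 0.55 ± 0.17, adjusted p = 0.0355), but that call was lost without any 1 teratoma or embryo library (adjusted p from 0.0515 to 0.116).

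The other 14 interferon-stimulated genes had group means of at most 9.94 FPKM. Among them were the RNA sensors Ifih1 and Ddx58, Ifit1, Ifit2, Ifit3, Oasl2, Rtp4, Xaf1, Parp9, Parp14, Dtx3l, Trim25, Ifi35 and Rsad2. Oasl2 had 10.8, 10.4 and 5.77 FPKM in transplant, 6.80, 12.1 and 7.06 in teratoma, 0.199, 0.685 and 0.0983 in adult and 0.180, 0 and 0 in embryo cells. Ifit1, which binds viral RNA, had 4.41, 7.36 and 5.10 FPKM in transplant, 5.19, 9.28 and 6.29 in teratoma, 0.683, 1.02 and 1.28 in adult and 0.0162, 0 and 0 in embryo cells. Xaf1 averaged 9.94 ± 1.83 FPKM in transplant, 8.49 ± 0.265 in teratoma, 1.27 ± 0.335 in adult and 1.01 ± 0.758 in embryo cells (SD, n = 3). These 3 genes separated the libraries by origin as Isg15 did. Ifi35 did not, with means of 6.68 ± 2.21 FPKM in transplant, 8.06 ± 2.58 in teratoma, 6.93 ± 1.39 in adult and 1.88 ± 0.660 in embryo cells. Ifit3 shares 51.2% of its 50-base words with Ifit3b, so its level is uncertain singly.

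Against adult cells, 23 of the 28 interferon-stimulated genes were called higher and 0 lower in transplant cells, where 44.2% of all genes were called (27.3% higher and 16.9% lower). In teratoma against adult cells the counts were 26 higher and 0 lower, against 45.4% of all genes called (36.4% higher and 8.94% lower). Under median-ratio scaling the higher counts were 21 and 19, with 0 lower in each, and the share of all calls that were higher moved in teratoma against adult cells to 53.0%, from 80.3% on the deposited values. With quantile normalization the higher counts were 19 and 17 with 0 lower, and the share in transplant against adult cells moved to 48.1%, from 61.7%. Also at an unadjusted p under 0.05 none of the 28 was lower in these 2 comparisons by limma. The antigen presentation genes gave 5 higher and 2 lower in transplant against adult cells, and 2 higher and 2 lower in teratoma against adult cells. The lower count for transplant was 1 without adult replicate 3, and that for teratoma was 1 without adult replicate 2. The higher count for teratoma was 0 without teratoma replicate 2 or adult replicate 1, 1 without teratoma replicate 3 or adult replicate 3, and 0 under median-ratio scaling, where 3 genes were lower. The medians were 1.55 for the interferon-stimulated and 0.65 for the antigen presentation genes in transplant against adult cells, beside 0.23 over all genes. In teratoma against adult cells they were 1.71 and 0.34, beside 0.50 over all genes.

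Against embryo cells, interferon-stimulated genes called higher numbered 22 in transplant, 24 in teratoma and 10 in adult cells, with 1, 1 and 3 lower. Of all genes, 14.9%, 15.5% and 15.8% were called higher and 27.6%, 10.6% and 36.9% lower in the same comparisons. The 3 lower in adult against embryo cells were Irf1, Ifitm2 and Samhd1, and without embryo replicate 3 there were 6. That comparison depended on scaling, with 17 higher and 1 lower under median-ratio scaling, where 49.8% of all calls were higher, against 30.0% on the deposited values. The share moved likewise in transplant against embryo cells to 51.3%, from 35.0%, with 25 interferon-stimulated genes higher and 1 lower. Without embryo replicate 2 the higher counts were 23, 25 and 9. The medians of the 28 genes were 2.27 in transplant, 2.42 in teratoma and 0.51 in adult cells against embryo cells.

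**Figure D4:**
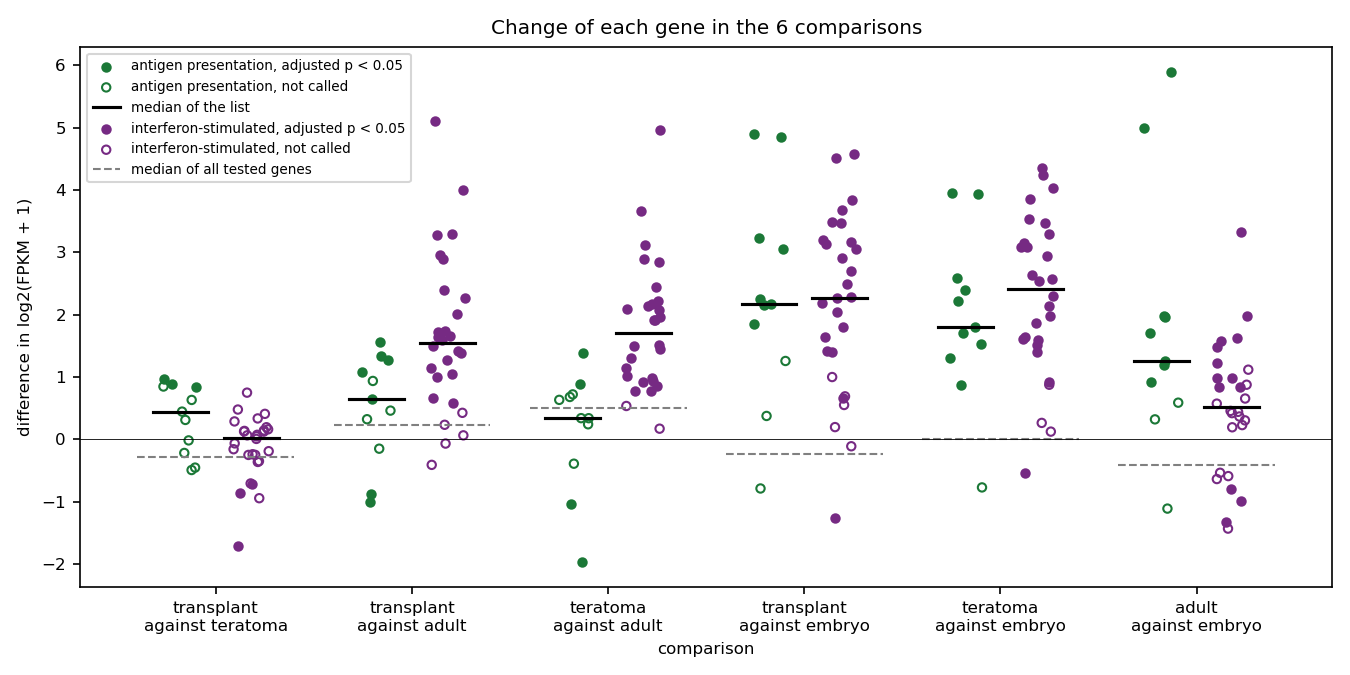
Change in log2(FPKM + 1) (vertical axis) of each of the 39 genes in the 6 comparisons, with filled points for called genes, open points for the others, bars for the median of each list and dashed lines for the median of all tested genes. In both comparisons with adult cells the interferon-stimulated median (1.55 and 1.71) lies above the antigen presentation median (0.65 and 0.34), whose genes spread to both sides of 0. Points against a group listed at 0 (Psmb8 and Usp18 against embryo cells, Ifi27l2a against adult cells) depend on the pseudocount and are not fold changes.

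Few members were called between transplant and teratoma cells. Of the 11 antigen presentation genes, 3 were called higher in transplant cells and 0 lower, where 22.6% of all genes were called (4.18% higher and 18.5% lower). They were H2-K1 (0.97 ± 0.28, adjusted p = 0.0302), H2-D1 (0.89 ± 0.30, adjusted p = 0.0489) and Tap2 (0.84 ± 0.26, adjusted p = 0.0369). These calls were close to the threshold. With a pseudocount of 0.1 none of the 3 was called (adjusted p from 0.154 to 0.381), while under median-ratio scaling 5 genes were higher and 43.4% of all calls were higher, against 18.5% of the calls on the deposited values. The H2-D1 call was lost without any 1 of the 9 transplant, teratoma or adult libraries (adjusted p from 0.0572 to 0.158). The H2-K1 call was lost without any 1 transplant library or teratoma replicate 1 or 3 (adjusted p from 0.0674 to 0.0972). The Tap2 call was lost without any 1 teratoma library, transplant replicate 1 or 2, or adult replicate 1 (adjusted p from 0.0505 to 0.119).

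Of the 28 interferon-stimulated genes, 0 were called higher and 3 lower in transplant against teratoma cells by limma, with 0 higher and 5 lower at an unadjusted p under 0.05. Rsad2 (viperin), an antiviral radical SAM enzyme, had 0.275, 1.05 and 0.693 FPKM in transplant and 3.10, 5.39 and 4.88 in teratoma cells, with 0.328, 0.108 and 0.240 in adult and 0.637, 0.297 and 1.62 in embryo cells. It was high in teratoma libraries alone, and the change was -1.71 ± 0.31 in transplant against teratoma cells (adjusted p = 0.00243). Gbp3 changed by -0.86 ± 0.22 (adjusted p = 0.0178) and Samhd1 by -0.71 ± 0.17 (adjusted p = 0.0124). Under median-ratio scaling neither of these was called (adjusted p = 0.0966 and 0.106), and Gbp3 was also not called without transplant replicate 1 or teratoma replicate 1 or 2 (adjusted p from 0.0548 to 0.0696). The median change of the 28 genes was 0.03, beside -0.28 over all genes.

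The 2 steps from the earlier to the later state, transplant against teratoma and adult against embryo, were also tested against each other as a difference of differences. It was called for 7 of the 11 antigen presentation genes, all with the step in transplant against teratoma below that in adult against embryo, and for 9 of the 28 interferon-stimulated genes, 8 of them in that direction, where 38.9% of all genes were called (21.7% positive and 17.2% negative). The 1 positive call, Ifitm2, was lost without any 1 teratoma library, transplant replicate 1 or 3, adult replicate 1 or 3 or embryo replicate 3 (adjusted p from 0.0525 to 0.0893). H2-K1 had steps of 0.97 and 5.90 and a difference of -4.93 ± 0.40 (adjusted p = 6.48e-06). H2-D1 had steps of 0.89 and 4.99 and a difference of -4.10 ± 0.42 (adjusted p = 3.06e-05). Gbp2, with steps of -0.94 and 3.32, differed by -4.26 ± 0.46 (adjusted p = 3.88e-05). For Isg15 the difference was -1.07 ± 0.45 and was not called (adjusted p = 0.0808).

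Upstream of these genes, most interferon transcripts were listed at 0, which in these values can be a failed estimate. Ifnb1, Ifna1, Ifna2, Ifna4, Ifna5 and Ifne were listed at 0 in all 12 libraries, and Ifng in 11. Ifnk had 0.686 FPKM in teratoma replicate 1 and 1.71 in embryo replicate 1, and Ifnz had 0.798 in transplant replicate 2, 0.123 in teratoma replicate 1 and 0.588 and 0.242 in embryo replicates 1 and 2, with all their other libraries at 0. Ifnar1, a type I receptor chain, averaged 6.39 ± 1.04 FPKM in transplant, 8.22 ± 1.63 in teratoma, 4.24 ± 1.10 in adult and 9.58 ± 3.34 in embryo cells (SD, n = 3). Its partner Ifnar2 averaged 22.8 ± 6.27, 27.5 ± 2.61, 24.7 ± 7.69 and 17.2 ± 1.41 FPKM in the same order and was called in no pairwise comparison. Ifngr1, the ligand-binding chain for interferon gamma, had 36.4, 43.5 and 29.7 FPKM in transplant, 16.4, 18.3 and 15.6 in teratoma, 10.2, 8.30 and 8.52 in adult and 5.68, 4.4996 and 3.46 in embryo cells. The groups of Ifngr1 did not overlap, and it was called in all 6 comparisons, with 1.06 ± 0.20 in transplant against teratoma (adjusted p = 0.00283) and 1.90 ± 0.20 in transplant against adult cells (adjusted p = 2.41e-05). Ifngr2 averaged 11.2 ± 1.84 FPKM in transplant, 13.9 ± 1.41 in teratoma, 5.86 ± 1.93 in adult and 14.6 ± 6.03 in embryo cells.

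Signal transducers did not move as 1 block. Jak1, a kinase of both receptor types, averaged 34.5 ± 1.24 FPKM in transplant, 47.9 ± 9.88 in teratoma, 76.2 ± 6.91 in adult and 26.2 ± 7.26 in embryo cells, and was lower by 1.12 ± 0.20 in transplant against adult cells (adjusted p = 0.000758). Jak2 averaged 6.90 ± 2.09, 16.4 ± 5.16, 12.5 ± 1.87 and 6.88 ± 0.507 FPKM and Tyk2 3.45 ± 0.776, 1.70 ± 0.625, 0.662 ± 0.0364 and 1.94 ± 0.515 FPKM in the same order (SD, n = 3). The feedback inhibitor Socs3 was highest in transplant cells, at 239 ± 32.7 FPKM, with 83.7 ± 22.5 in teratoma, 43.7 ± 2.67 in adult and 20.6 ± 2.55 in embryo cells, and the change in transplant against adult cells was 2.42 ± 0.20 (adjusted p = 6.17e-06). Of 21 signalling genes tested, 7 were called higher and 5 lower in transplant against adult cells, and 7 higher and 1 lower in teratoma against adult cells. These were 33.3% higher and 23.8% lower, and 33.3% and 4.76%, near the shares of all genes (27.3% and 16.9%, and 36.4% and 8.94%). Against embryo cells 7 were higher and 0 lower in transplant, 7 and 0 in teratoma, and 8 and 2 in adult cells. The higher shares there (33.3%, 33.3% and 38.1%) were above those of all genes (14.9%, 15.5% and 15.8%). Of all genes, 27.6%, 10.6% and 36.9% were lower in the same comparisons.

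A list of 42 further tested interferon-stimulated genes gave 28 higher and 1 lower in transplant against adult cells, 31 higher and 1 lower in teratoma against adult cells, and 2 higher and 3 lower in transplant against teratoma cells. The chemokine Cxcl10, which attracts T cells, had 35.3, 37.0 and 29.1 FPKM in transplant, 97.7, 78.2 and 85.0 in teratoma, 2.54, 11.2 and 0.656 in adult and 3.05, 1.7975 and 5.10 in embryo cells. Its change in transplant against adult cells was 3.06 ± 0.54 (adjusted p = 0.000786). Of 25 other class I and loading genes tested, 4 were higher and 3 lower in transplant against adult cells, and 8 higher and 2 lower in teratoma against adult cells. The constitutive proteasome genes Psmb5, Psmb6 and Psmb7 are among the 25. Of all genes, 27.3% were higher and 16.9% lower in transplant, and 36.4% higher and 8.94% lower in teratoma against adult cells. Against adult cells the share of the 25 called higher was thus not above that of all genes. Against embryo cells it was above, with 9 higher and 4 lower in transplant and 8 higher and 1 lower in teratoma cells. Of all genes, 14.9% were higher and 27.6% lower in transplant, and 15.5% higher and 10.6% lower in teratoma against embryo cells. In adult against embryo cells the count was 5 higher and 5 lower, beside 15.8% and 36.9% of all genes. In transplant against teratoma cells 4.18% of all genes were higher and 18.5% lower.

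Leukocyte transcripts, like the summed interferon-stimulated members, were higher in stem-cell-derived than in native libraries. The sum of 18 leukocyte markers was 27.9 to 49.1 FPKM in transplant, 63.7 to 198.8 in teratoma, 7.80 to 16.3 in adult and 7.07 to 17.4 in embryo libraries. Of the 11 that could be tested, 5 were called higher in transplant and 9 in teratoma against adult cells, where 27.3% and 36.4% of all genes were. The defining marker Ptprc, which encodes the CD45 antigen of the sort, had 0.113, 0.308 and 0.0784 FPKM in transplant and 0.476, 0.801 and 1.44 in teratoma cells, and was listed at 0 in all adult libraries, with 0.0393, 0 and 0 in embryo cells. Nkg7 was listed at 0 in all 12 libraries. Class II genes, summed over 8, came to 13.99 to 37.2 FPKM in transplant, 23.7 to 55.3 in teratoma, 0.980 to 6.22 in adult and 1.35 to 1.83 in embryo libraries. The summed interferon-stimulated members were 545 to 607, 555 to 632, 171 to 193 and 132 to 170 FPKM in the same groups. Teratoma libraries lay above transplant libraries in the leukocyte sum, while the 2 groups overlapped in the interferon-stimulated sum. The part of leukocyte RNA in these results was not tested. In bulk samples such as these, fewer cells of a type and less RNA per cell cannot be told apart. Other marker sums also moved with the groups. Fibroblast markers, summed over 11, came to 4118 to 6372 FPKM in transplant, 2158 to 3530 in teratoma, 1051 to 1520 in adult and 1867 to 2714 in embryo libraries. Epithelial markers, summed over 9, came to 0.728 to 10.6 FPKM in transplant, 118 to 393.5 in teratoma, 0.691 to 1.99 in adult and 6.63 to 55.2 in embryo libraries. Endothelial markers, summed over 11, came to 14.7 to 16.7, 60.1 to 72.8, 26.2 to 34.9 and 22.02 to 56.5 FPKM in the same order of groups. Teratoma libraries were thus highest in both epithelial and endothelial sums. Erythroid markers, summed over 8, came to 0.486 to 1.33 FPKM in transplant, 13.5 to 58.3 in teratoma, 4.51 to 26.8 in adult and 386 to 2071 in embryo libraries. Muscle progenitor markers, summed over 10, came to 442.9 to 597 FPKM in transplant, 411 to 487 in teratoma, 901 to 1077 in adult and 165 to 212 in embryo libraries. The part of these cell types in the results was not tested.

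**Figure D5:**
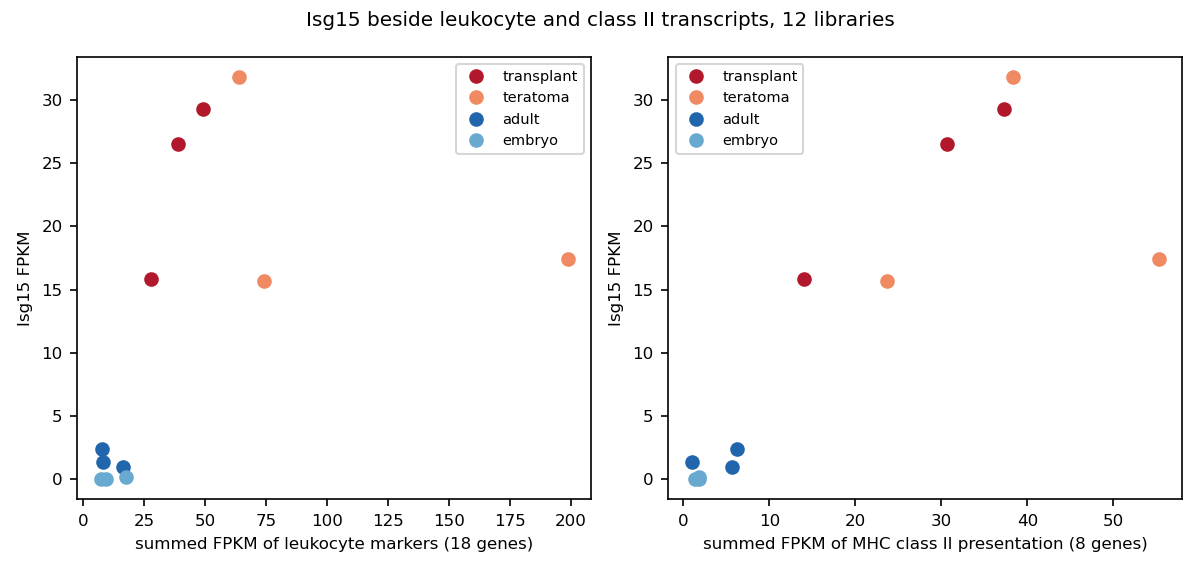
Isg15 FPKM (vertical axis) against the summed FPKM of 18 leukocyte markers (left) and of 8 class II genes (right), with 1 point per library coloured by group. The 6 stem-cell-derived libraries lie above the 6 native ones on both axes, and teratoma replicate 3, with the highest leukocyte sum (198.8 FPKM), has 17.4 FPKM of Isg15.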

How the data were processed

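Members, gene lists and tests were chosen with earlier results of these data known. Gene expression was measured by RNA-seq in 12 libraries, grouped by their labels. The file that the authors deposited holds FPKM per symbol for each library, per the file headers. Collagenase II and dispase freed the cells, per the labels' protocols, RNA was purified with RNeasy and DNase I, and the library kit was SMARTer Stranded Total RNA-seq Pico. Named in the submitters' processing notes, without roles, are the build mm10 and the tools Partek, Cufflinks 2.2.1.0, TopHat 0.7 and CASAVA 1.8.2. Depth, annotation and strand use were not given in the sources used here, so precision rests on the spread between libraries.

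Repeated symbols among the 23746 entries were summed, which left 23284. limma 3.58.1 (R 4.3.3) was run on log2(FPKM + 1), with an intensity trend and 1 fit for all libraries (8 residual degrees of freedom), over the 12699 genes that reached 1 FPKM in 3 or more libraries. Benjamini-Hochberg adjustment covered all of them in each comparison, with calls under 0.05. The fit was also tried on simulated normal values with known changes in adult cells. These had no floor at 0 and no shift between libraries, so that run cannot show how the fit handles either. By rule, values per library are printed for H2-K1, H2-D1, B2m, Tap1, Psmb8, Nlrc5, Irf1, Irf7, Irf9 and Stat2 and for other members called at least once with a group mean of 10 FPKM or more. From the pathway lists, up to 3 called genes by size of change per comparison could be named, besides the named receptor, Jak and proteasome genes, and 1 gene of that rule is not reported here. Ifit1, Oasl2, Rsad2, Xaf1, Ifi35, Psmb9, Psmb10, Ptprc, Nkg7, Il6, Nfkb1 and H2-Aa fall outside that rule and were chosen after their values were seen. H2-T22, H2-M3, H2-K2 and H2-Q6 were also named after their values were seen. Gene overlaps come from GENCODE M21 and promoters from RefSeq, both on GRCm38 (mm10). Alternatives were another pseudocount (0.1), other filters (none, or a mean of 5 FPKM), quantile normalization, median-ratio scaling, fits of only the groups compared, a replicate block, the highest of repeated entries, isolated zeros taken as missing, and each library left out in turn.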

Additional observations from a re-analysis of the deposited data

Results flagged for a closer look

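The step in transplant against teratoma cells differed from the step in adult against embryo cells for 16 of the 39 members (41.0%). The difference itself was tested (limma, adjusted p under 0.05), and 38.9% of all genes were called, a share near that of the members. By direction, 38.5% of the members were negative and 2.56% positive, beside 17.2% and 21.7% of all genes. The differences are in log2(FPKM + 1), first step minus second. Among antigen presentation genes they were -4.93 for H2-K1 (adjusted p = 6.48e-06), -4.10 for H2-D1 (adjusted p = 3.06e-05), -1.93 for Psmb8 (adjusted p = 0.00642), -1.75 for Nlrc5 (adjusted p = 0.00229), -1.33 for Tapbp (adjusted p = 0.0187), -1.13 for Tap2 (adjusted p = 0.0281) and -0.88 for B2m (adjusted p = 0.0189). Among interferon-stimulated genes they were -4.26 for Gbp2 (adjusted p = 3.88e-05), -2.43 for Gbp3 (adjusted p = 0.000151), -1.98 for Parp14 (adjusted p = 0.000875), -1.96 for Ifitm3 (adjusted p = 0.00127), -1.71 for Ifi35 (adjusted p = 0.00623), -1.23 for Ifit1 (adjusted p = 0.0212), -1.16 for Trim25 (adjusted p = 0.0311), -1.02 for Irf9 (adjusted p = 0.0158) and 0.87 for Ifitm2 (adjusted p = 0.0401). The size for Psmb8 is set by the pseudocount, as its embryo libraries are listed at 0, and it ran from -4.82 to -1.67 over the alternatives. Embryo values were also at most 0.292 FPKM for Nlrc5, Gbp2, Gbp3, Parp14 and Ifit1, whose sizes are likewise uncertain. Over the alternatives they ran from -4.73 to -1.51 for Nlrc5, -6.59 to -3.96 for Gbp2 and -5.12 to -2.32 for Gbp3. Those of Parp14 ran from -4.65 to -1.84 and those of Ifit1 from -3.63 to -1.02. In H2-K1, H2-D1, B2m, Tap2 and Tapbp both steps were positive. Nlrc5, Psmb8, Gbp2, Gbp3, Parp14, Ifi35, Ifit1, Trim25 and Irf9 had a negative first step and a positive second one, though of these first steps only that of Gbp3 was called. Ifitm3 had steps of 0.01 and 1.97, and Ifitm2 of 0.07 and -0.80.

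Leaving out 1 library ended 4 of these calls. That of Tap2 was lost without teratoma replicate 1 or 2, transplant replicate 1 or 3, adult replicate 1 or 2 or embryo replicate 3 (adjusted p from 0.0536 to 0.0729). Trim25 was lost without teratoma replicate 2 or 3, transplant replicate 2, or replicate 3 of adult or embryo cells (adjusted p from 0.0502 to 0.0768). Ifit1 was lost without teratoma replicate 2, transplant replicate 1 or adult replicate 3 (adjusted p from 0.0525 to 0.0556). Ifitm2 was lost without any 1 of 8 libraries (the 3 teratoma ones, transplant and adult replicates 1 and 3, and embryo replicate 3; adjusted p from 0.0525 to 0.0893). Among the other alternatives, B2m was lost with quantile normalization (adjusted p = 0.103), Trim25 with the replicate block (adjusted p = 0.0513), and Ifitm2 with the replicate block (adjusted p = 0.0636), without the filter (adjusted p = 0.0575) and under median-ratio scaling (adjusted p = 0.0998).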

How the results depend on the processing

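Of 169 calls of single members, 127 were kept under each of the 21 alternatives in which the gene was tested, 42 were lost under at least 1 and 0 changed direction. Counts below are of called members, for antigen presentation (AP) and interferon-stimulated (ISG) genes, and the cause of a move was not tested unless given. With a mean of at least 5 FPKM fewer members were tested, and the higher counts were 5 AP and 6 ISG in adult against embryo, 6 AP and 14 ISG in teratoma against embryo, 13 ISG in transplant against embryo, 12 ISG in transplant against adult (with 1 AP lower), 0 AP and 14 ISG in teratoma against adult, and 3 ISG in the difference of differences. Under median-ratio scaling they were 17 ISG higher and 1 lower in adult against embryo, 5 AP higher and 1 ISG lower in transplant against teratoma, 0 AP higher in teratoma against adult and 0 ISG higher in the difference. Smaller moves under that scaling were 9 AP higher in adult and in transplant against embryo, 4 AP higher in transplant against adult and 9 ISG lower in the difference. With quantile normalization they were 19 ISG higher in adult against embryo, 5 AP and 1 ISG higher and 1 ISG lower in transplant against teratoma, and 0 AP and 17 ISG higher in teratoma against adult. A pseudocount of 0.1 gave 0 AP higher in transplant against teratoma, 1 AP lower in transplant against adult, and 1 AP higher and 1 lower in teratoma against adult. Without the filter 1 AP was higher in teratoma against adult and 0 ISG in the difference. Fitting only the groups compared gave 0 ISG lower in teratoma against embryo and 5 AP higher in transplant against teratoma.

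The labels share replicate numbers, but same-numbered libraries correlated at -0.0951 to 0.0956 and 3 of 12 correlated best with their own number, so the numbers were not taken as pairs. With the replicate block the ISG counts were 0 lower in teratoma against embryo and 0 higher in the difference, and 5 member calls were lost.

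Leaving out 1 library gave, for AP, 0 to 1 lower in adult and in transplant against embryo, 0 to 4 higher in transplant against teratoma, 1 to 2 lower in transplant and in teratoma against adult, and 0 to 3 higher in teratoma against adult. For ISG it gave 3 to 6 lower in adult against embryo, 0 to 1 lower in teratoma against embryo and 0 to 2 higher in the difference. Read depth is unknown, so how far low values such as those of Nlrc5 and Psmb8 can be told from 0 is also unknown.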

Other observations

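NF-kB target genes were mostly higher in all 3 other groups than in embryo cells. Of 13 such genes, 13 were called higher in transplant, 13 in teratoma and 11 in adult against embryo cells, with 0 lower in each by limma (0 lower also at an unadjusted p under 0.05), beside 14.9%, 15.5% and 15.8% of all genes. The cytokine gene Il6 changed by 4.58 in transplant (adjusted p = 6.79e-07), 5.20 in teratoma (adjusted p = 8.11e-07) and 6.13 in adult against embryo cells (adjusted p = 4.28e-08). The precursor gene Nfkb1 changed by 3.46 in adult against embryo cells (adjusted p = 9.16e-07) and by -2.34 in transplant against adult cells (adjusted p = 4.49e-05). Against adult cells the 13 genes split, with 3 higher and 4 lower in transplant and 6 higher and 2 lower in teratoma cells. Of all genes, 27.3% were higher and 16.9% lower in transplant, and 36.4% higher and 8.94% lower in teratoma against adult cells. In transplant against teratoma cells 8 of the 13 were lower and 0 higher by limma (0 higher also at an unadjusted p under 0.05), where 18.5% of all genes were lower. Early response genes, which tissue digestion can induce, were called higher for 10 of 10 genes in transplant, 7 of 10 in teratoma (2 lower) and 2 of 10 in adult cells (6 lower) against embryo cells. Of all genes, 14.9%, 15.5% and 15.8% were higher there and 27.6%, 10.6% and 36.9% lower. Against adult cells 9 of 10 were higher in transplant and 7 of 10 in teratoma cells, with 0 lower, beside 27.3% and 36.4% of all genes higher. The part of early response genes in these changes was not tested.

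Class II genes were higher in both stem-cell-derived groups. H2-Aa had 6.98, 6.89 and 3.82 FPKM in transplant, 2.91, 4.27 and 4.74 in teratoma and 0, 0.455 and 0.492 in adult cells, and was listed at 0 in all embryo libraries. Its change was 2.38 in transplant (adjusted p = 4.98e-05) and 1.92 in teratoma against adult cells (adjusted p = 0.000219). Of 6 class II genes tested, 5 were called higher against adult cells in each stem-cell-derived group, where 27.3% of all genes were in transplant and 36.4% in teratoma cells.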
